A study of Mus musculus with 12 samples.

Results

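Gene expression in the ventral hippocampus of wild-type mice was compared between 3 libraries from mice given SSDS with knockdown of hepatic ACOT12 (SSDS-shACOT12) and 3 libraries from mice with no treatment (Control). These are 6 of the 12 libraries of the series, chosen by their column names in the deposited raw counts and fitted without the other 6. In this field SSDS usually stands for subthreshold social defeat stress, although the labels give the abbreviation alone. The group SSDS-GFP received SSDS after AAV8-eGFP, and its 3 libraries are used here for the direct difference between the SSDS groups. The column names of both SSDS groups carry TBG, which in this field usually names a promoter active in hepatocytes, and those of Control carry NC. Age was not given in the sources used here. Control differed from SSDS-shACOT12 in the stress, the knockdown and whatever delivered it at once, so their contributions cannot be told apart in this comparison. No source used here says that the replicates came from separate animals, so p-values measure only the spread between these libraries.

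ACOT12 is a thioesterase that splits acetyl-CoA into acetate and coenzyme A, and it is best known from liver. The ventral hippocampus takes part in responses to stress and anxiety, and it contains dentate granule cells, pyramidal cells, inhibitory neurons and glia. Chaperones of the endoplasmic reticulum fold secreted and membrane proteins and are induced by the unfolded protein response, for which Xbp1 is a transcription factor. Cytosolic heat shock proteins refold damaged proteins and are induced through Hsf1.

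The 6 libraries held 14979289 to 16761509 counts, and 16264 genes had enough counts to be tested. Neuronal, granule cell, pyramidal, inhibitory, astrocyte, oligodendrocyte, microglial and endothelial markers were present in all 6, while Alb, the main product of hepatocytes, had 0 to 17 counts. Acot12 itself had too few counts for the test, with 12, 10 and 9 counts in Control and 7, 3 and 4 in SSDS-shACOT12, and since the knockdown was hepatic these counts do not check it. The SSDS-shACOT12 libraries varied more: the median SD of log2 CPM was 0.297 against 0.150 in Control. On the first principal component of the 6 libraries, with 48.2% of the variance, SSDS-shACOT12 1 and 3 scored 34.8 and 59.8, whereas SSDS-shACOT12 2 scored -14.4, close to Control at -33.9, -16.7 and -29.4. The mean correlation with Control and with the own group was 0.973 and 0.960 for SSDS-shACOT12 2, 0.971 and 0.971 for library 1, and 0.956 and 0.969 for library 3.

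With this spread, 0 of 16264 genes passed an adjusted p of 0.05 in edgeR's quasi-likelihood test (0% called), although 3226 genes (19.8%) had an unadjusted p under 0.05. Of these, 1687 were higher in SSDS-shACOT12 (10.4%) and 1539 lower (9.46%). The 3 SSDS-shACOT12 libraries all lay above the 3 Control libraries for 2208 genes (13.6%) and all below for 1996 (12.3%). Without SSDS-shACOT12 2 the same test called 4599 genes, 2190 higher (13.2%) and 2409 lower (14.5%), while it called 0 without any other single library. DESeq2 called 358 higher (2.61%) and 314 lower (2.29%) genes. When the spread was estimated over all 12 libraries, edgeR called 9 genes higher (0.0532%) and 5 lower (0.0296%), and all 14 of them were also called by DESeq2 and without SSDS-shACOT12 2. The 9 higher genes were Sdf2l1, Hspa5, Serpinh1, Dnajb1, Pdia4, Xbp1, Calr, Creld2 and Manf. The 5 lower genes were Dgkh, Cald1, Zfp46, Adgrf5 and Stxbp6.

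Protein-folding genes led the higher side. A list of 20 genes of the endoplasmic reticulum held chaperones, folding factors, members of its degradation machinery such as Syvn1, Herpud1 and Sel1l, and the transcription factor Xbp1, and is called the chaperone list of this compartment below. Of the 20, 16 were higher and 4 lower in SSDS-shACOT12, with a median log2 fold change of 0.47 against -0.01 over all kept genes. None passed the edgeR test on the 6 libraries. At an unadjusted p under 0.05, 15 were higher and 0 lower, and for 14 the groups did not overlap. DESeq2 called 10 of the 20, and the fit of 12 libraries called 7. Over all genes tested, 10.4% were higher and 9.46% lower at that unadjusted p, and 13.6% lay above Control in every library. DESeq2 called 2.61% of its genes higher, and the fit of 12 libraries 0.0532%.

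Sdf2l1 (ENSMUSG00000022769, mm10 chromosome 16, 17130138 to 17132383), a cofactor that keeps unfolded proteins in the endoplasmic reticulum soluble, had 9.53, 9.43 and 10.3 CPM in Control and 25.8, 25.7 and 27.8 CPM in SSDS-shACOT12. Its log2 fold change was 1.44 ± 0.14 (SE, n = 3 against 3), with an edgeR adjusted p of 0.0780, the smallest of all genes, and of 0.00179 in the fit of 12 libraries. The gap between the groups was several times the spread within either. Hspa5 (ENSMUSG00000026864, chromosome 2, 34771970 to 34777547), the central Hsp70 chaperone of this compartment, had 174, 172 and 172 CPM in Control and 334, 380 and 361 CPM in SSDS-shACOT12 (log2 fold change 1.05 ± 0.12, edgeR adjusted p = 0.154; 0.0208 over 12 libraries). The Control libraries were almost equal and all 3 SSDS-shACOT12 libraries lay far above them, with means of 173 and 358 CPM.

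Xbp1 (ENSMUSG00000020484, chromosome 11, 5520659 to 5525893) had 53.9, 62.1 and 62.2 CPM in Control and 111, 100 and 115 CPM in SSDS-shACOT12 (0.87 ± 0.13). The file counts whole genes, so the spliced and unspliced forms of this mRNA were not separated. Pdia4, a disulfide isomerase, had 31.9, 30.6 and 27.5 CPM against 51.8, 62.1 and 55.8 CPM (0.92 ± 0.14). Calr, the calcium-binding lectin chaperone calreticulin, had 251, 278 and 264 CPM against 440, 450 and 500 CPM (0.81 ± 0.13). In none of these genes did the groups overlap, and in each SSDS-shACOT12 2, the library nearest to Control over all genes, was at the level of its own group.

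Creld2, a secreted factor of the same response, averaged 12.8 ± 1.43 CPM in Control and 24.4 ± 3.34 CPM in SSDS-shACOT12 (SD, n = 3). Manf, a secreted factor that is also retained in the endoplasmic reticulum, averaged 40.3 ± 2.25 and 67.6 ± 6.64 CPM, and Serpinh1, the collagen chaperone Hsp47, 12.8 ± 1.85 and 31.9 ± 6.21 CPM. The groups did not overlap in any of these 3 genes. The 4 lower members were Dnajb9 and Dnajc3, Hsp40 cofactors of Hspa5, at -0.41 ± 0.34 and -0.17 ± 0.21, and Sel1l and Selenos of the degradation machinery, at -0.18 ± 0.16 and -0.02 ± 0.14. Canx, the lectin chaperone calnexin, was counted as higher at 0.02 ± 0.16. In all 5 genes the groups overlapped. Dnajb9 had 25.8 and 22 CPM in SSDS-shACOT12 1 and 3 and 59.7 CPM in SSDS-shACOT12 2, against 45.0 to 52.3 CPM in Control, and Dnajc3 and Canx showed the same order, below Control in libraries 1 and 3 and above it in library 2. These 5 genes were described after their values were seen.

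**Figure D1:**
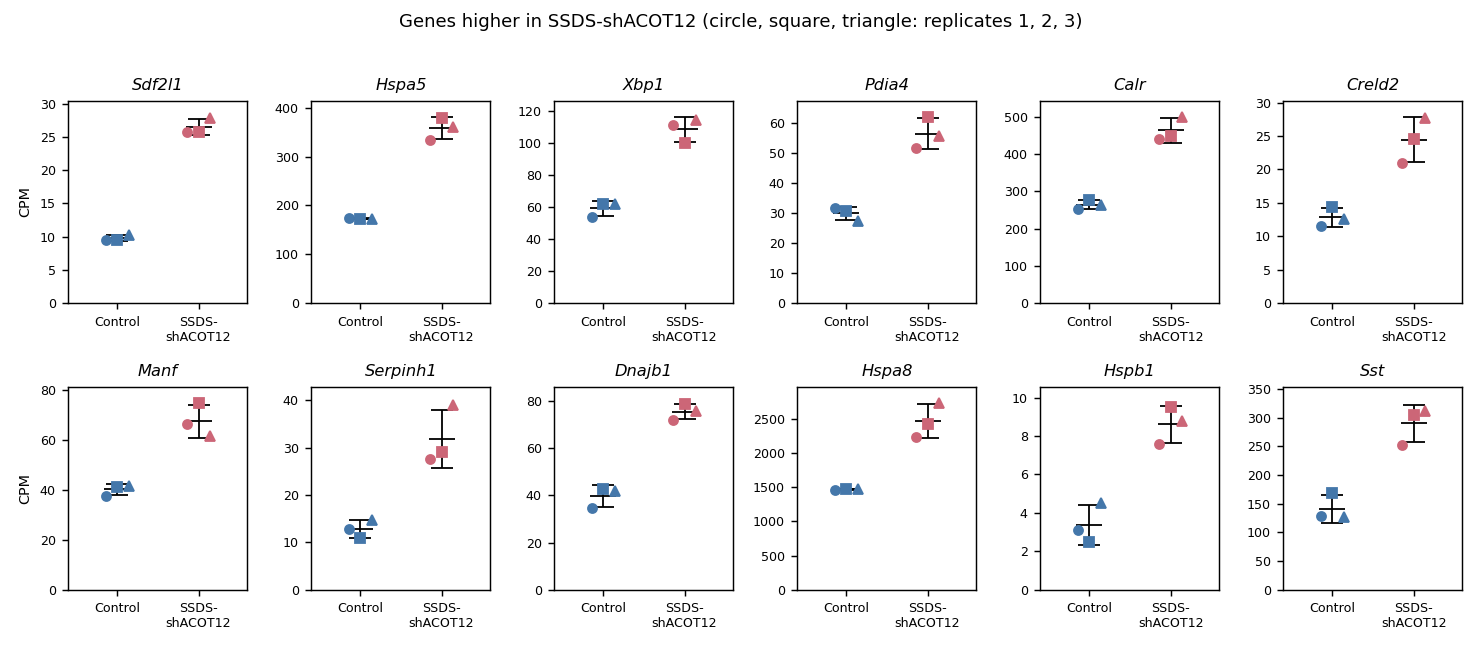
CPM (linear axes from 0) of 12 genes that were higher in SSDS-shACOT12, with 1 symbol per library (blue Control, red SSDS-shACOT12) and lines for the mean and SD of 3 libraries. For all 12 genes every red symbol lies above every blue one, for example 334 to 380 against 172 to 174 CPM for Hspa5.

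The heat shock list holds mostly cytosolic proteins, with Hsf1 and the mitochondrial pair Hspd1 and Hspe1. Of 20 kept members 15 were higher and 5 lower, with a median of 0.36, and 10 were higher at an unadjusted p under 0.05 with 0 lower, while 12 did not overlap. DESeq2 called 5. Dnajb1, the Hsp40 partner of cytosolic Hsp70, had 34.5, 42.7 and 41.9 CPM in Control and 72.0, 78.5 and 75.7 CPM in SSDS-shACOT12 (0.93 ± 0.14, edgeR adjusted p = 0.157; 0.0267 over 12 libraries). Hspb1, a small heat shock protein that holds unfolded proteins, had 3.13, 2.50 and 4.52 CPM against 7.56, 9.49 and 8.77 CPM (1.34 ± 0.26). Hspa8, the constitutive cytosolic Hsp70, averaged 1470 ± 2.73 CPM in Control and 2469 ± 248 CPM in SSDS-shACOT12 (SD, n = 3). Hspa1b, an inducible Hsp70, had a log2 fold change of 0.71 ± 0.16, but Hspa1a is a near-identical copy and reads could be split between them. All 4 genes were higher in 3 of 3 libraries with no overlap. Hsp90aa1 and Dnaja1, also described after their values were seen, were counted as higher at 0.06 ± 0.21 and 0.01 ± 0.21. Both were below Control in SSDS-shACOT12 1 and 3 and above it in library 2. Without library 2 they were at -0.19 and -0.25. The 5 lower members, described after their values were seen, all overlapped. Hspa4l (-0.26 ± 0.23), Dnajb4 (-0.18 ± 0.25), Hspd1 (-0.14 ± 0.23) and Chordc1 (-0.13 ± 0.37) were below Control in SSDS-shACOT12 1 and 3 and above it in library 2. Hspa2 was at -0.02 ± 0.15. Without SSDS-shACOT12 2, edgeR called 9 members higher and these 4 others lower, against 13.2% and 14.5% over all genes.

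The promoters of these lists were searched for the elements that textbooks assign to the responses, because members of both lists were higher together. RefSeq promoters of GRCm38.p6, the assembly behind mm10, run from 250 bases before to 50 after each start, and 18 of the 20 endoplasmic reticulum members and 15 of the 20 heat shock members matched by symbol. The endoplasmic reticulum stress element, ERSE, was searched on both strands as CCAAT and CCACG with 9 bases of any kind between them. It was in 8 of the 18 genes and in 0 of the 15, against 0.137% of all 27025 genes (0.119% of all 32851 promoters). The shorter ERSE-II, ATTGG and CCACG with 1 base between them, was in Dnajb11 and Herpud1, again of the 18. Over all genes its share was 0.0444% (0.0365% of promoters), and no gene of the 18 held both elements. A match is a description of letters, not a bound site or a cause. The shares use sequence and list membership alone, so they say nothing about the change between the groups. The 8 ERSE windows and that of Herpud1 follow, each 5′ to 3′ on the strand of its gene, with the fixed letters of the motif in capitals. Windows with CGTGG before ATTGG hold the motif on the opposite strand.
Hspa5 (chr2:34772010-34772058, plus strand): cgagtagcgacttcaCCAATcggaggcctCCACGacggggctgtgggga
Calr (chr8:84847060-84847108, minus strand): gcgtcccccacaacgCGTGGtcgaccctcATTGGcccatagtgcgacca
Creld2 (chr15:88819505-88819553, plus strand): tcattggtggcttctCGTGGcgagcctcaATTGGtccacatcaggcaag
Pdia6 (chr12:17266476-17266524, plus strand): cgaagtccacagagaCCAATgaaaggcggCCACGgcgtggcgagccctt
Hsp90b1 (chr10:86705623-86705671, minus strand): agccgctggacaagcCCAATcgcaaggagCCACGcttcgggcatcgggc
Syvn1 (chr19:6046517-6046565, plus strand): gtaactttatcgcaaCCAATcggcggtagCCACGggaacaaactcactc
Canx (chr11:50325785-50325833, minus strand): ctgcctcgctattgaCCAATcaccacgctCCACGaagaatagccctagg
Dnajc3 (chr14:118937812-118937860, plus strand): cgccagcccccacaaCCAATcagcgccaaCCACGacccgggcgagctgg
Herpud1 (chr8:94386362-94386402, plus strand): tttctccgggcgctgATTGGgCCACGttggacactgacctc

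Motif and expression did not go together one to one. Among the 8 genes with an ERSE match, Hspa5, Creld2, Calr, Pdia6, Syvn1 and Hsp90b1 had log2 fold changes of 1.05, 0.93, 0.81, 0.77, 0.57 and 0.45, whereas Canx and Dnajc3 had 0.02 and -0.17. Pdia6 (a disulfide isomerase) overlapped in 1 library, with 107, 183 and 201 CPM in SSDS-shACOT12 against 85.9, 93.3 and 108 CPM in Control. Herpud1 and Dnajb11, with the shorter element, had 0.45 ± 0.13 and 0.41 ± 0.13, without overlap. Sdf2l1, the gene with the smallest p, had no match to these letters in the window searched. The heat shock element was searched on both strands as GAA, TTC and GAA with 2 bases of any kind between neighbours. It was in 4 of the 15 heat shock members and 0 of the 18 others, against 0.662% of all genes (0.603% of promoters). Hspe1 (0.39 ± 0.15) and Hspd1 (-0.14 ± 0.23), the co-chaperonin and chaperonin of mitochondria, share 1 such window between their starts, shown here on the strand of Hspe1 with the fixed letters of 2 overlapping matches in capitals, the first on the opposite strand and the other on the strand shown.
Hspe1 (chr1:55088044-55088091, plus strand): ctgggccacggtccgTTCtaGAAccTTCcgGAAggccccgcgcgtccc

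On the lower side, genes of synapses, cell adhesion and lipid signalling had the smallest p. Dgkh (ENSMUSG00000034731, chromosome 14, 78558750 to 78732776), a diacylglycerol kinase, had 277, 228 and 294 CPM in Control and 118, 80.2 and 69.2 CPM in SSDS-shACOT12 (log2 fold change -1.58 ± 0.22, edgeR adjusted p = 0.157; 0.0432 over 12 libraries). Cadm2 (ENSMUSG00000064115, chromosome 16, 66655421 to 67620908), a synaptic adhesion molecule, had 329, 233 and 410 CPM against 99.0, 142 and 69.4 CPM (-1.65 ± 0.29). The groups were separate in both genes, with the wider spread in Cadm2. Syt14, a synaptotagmin, averaged 27.2 ± 3.10 and 12.8 ± 0.951 CPM, and Ano3, an anoctamin of neurons, 179 ± 19.3 and 96.3 ± 8.77 CPM (SD, n = 3). Adgrf5, an adhesion receptor of endothelium and other cells, had 51.3, 47.1 and 42.4 CPM against 25.4, 27.3 and 26.1 CPM (-0.84 ± 0.14; edgeR adjusted p = 0.0302 over 12 libraries). Malat1, a nuclear long RNA, averaged 729 ± 89.1 and 387 ± 68.8 CPM. Epha3, Cald1, Zfp46, Mkx, Ptgr2, Fam84b, Gm11613 and Ccbe1 were also among the 15 lower genes with the smallest p, which ran from -1.65 to -0.84.

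**Figure D2:**
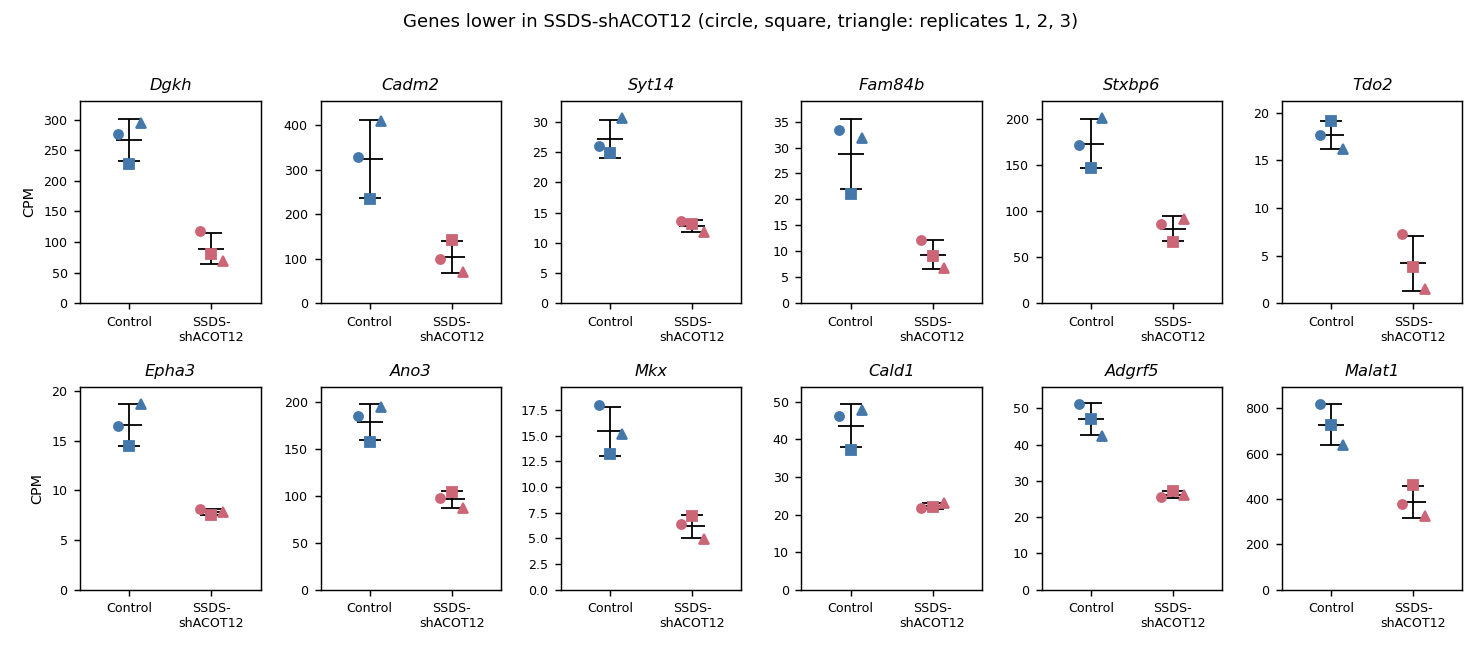
CPM (linear axes from 0) of 12 genes that were lower in SSDS-shACOT12, with 1 symbol per library and lines for the mean and SD of 3 libraries. Every red symbol lies below every blue one, as in Adgrf5 with 25.4 to 27.3 against 42.4 to 51.3 CPM.

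Gene length moved with the comparison. The median span from start to end was 144543 bases for the 15 lower genes and 5578 bases for the 15 higher genes with the smallest p, against 21600.5 bases over all kept genes. In 8 equal bins by deposited length, the median log2 fold change went from 0.23 in the shortest bin (415 genes higher and 83 lower at an unadjusted p under 0.05) to -0.21 in the longest (44 higher and 386 lower). All 3 SSDS-shACOT12 libraries showed this order, with 0.21, 0.14 and 0.31 in the shortest bin and -0.26, -0.05 and -0.36 in the longest, relative to the Control mean. Control 2 had the same order in weaker form (0.06 and -0.05). Transcripts labelled lincRNA were lower too, with a median of -0.20 over 489, as were those of the class TEC, still to be verified experimentally, with -0.48 over 257. The part of length or RNA quality in single genes was not tested beyond removing the length trend, after which 0 genes were called and 2958 had an unadjusted p under 0.05.

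**Figure D3:**
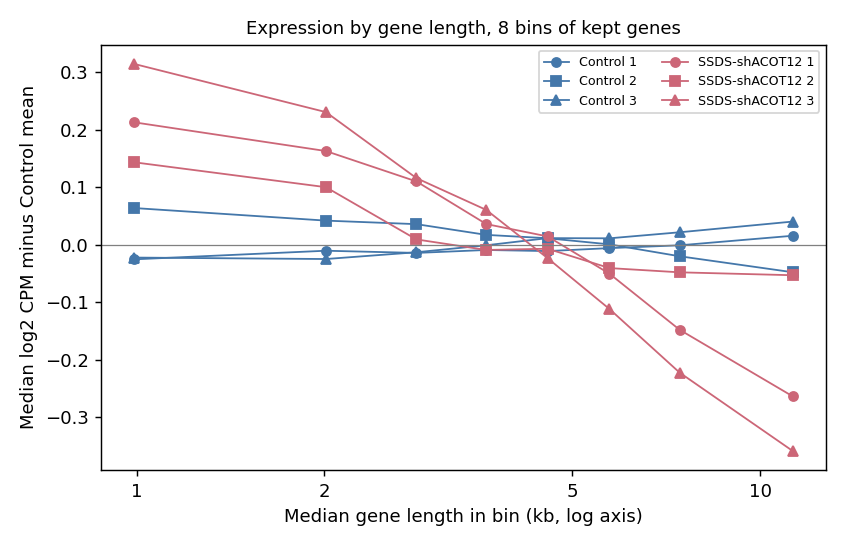
Median over genes of log2 CPM minus the Control mean, by library, in 8 bins of 2033 kept genes each, against the median length of the bin (kb, log axis). The 3 SSDS-shACOT12 lines go from above 0 at the left to below 0 at the right, with library 2 the flattest of them.

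Nuclear genes of respiration, translation and protein turnover were higher in most members. Of 76 nuclear genes of the respiratory chain, 75 were higher, with a median of 0.50, and 53 had an unadjusted p under 0.05 upwards and 0 downwards. Among all kept genes, 10.4% were higher and 9.46% lower at that p. Ndufb6, a subunit of complex I, had 55.7, 64.5 and 57.9 CPM in Control and 85.0, 89.6 and 116 CPM in SSDS-shACOT12, and Cox7b, a subunit of complex IV, had 123, 157 and 131 against 195, 214 and 256 CPM. Neither gene overlapped between groups. Of 79 cytoplasmic ribosomal protein genes, 75 were higher (median 0.38), 48 at an unadjusted p under 0.05, with Rpl38 and Rpl35 at 0.98 ± 0.21 and 0.64 ± 0.13. Ribosomal protein genes have many pseudogene copies, so their reads may be shared. Of 32 proteasome subunits 27 were higher, with a median of 0.27. With the length trend removed, the medians were 0.35 for the respiratory chain, 0.27 for ribosomal proteins, 0.21 for the proteasome and 0.54 for the chaperones of the endoplasmic reticulum.

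Mitochondrially encoded genes separated the SSDS-shACOT12 libraries from each other. All 12 kept protein genes were lower on balance (median -0.44), but 0 had an unadjusted p under 0.05 and for 0 were the groups apart. As a share of the Control mean, they stood at a median of 28.4% in SSDS-shACOT12 1 (0.666% to 58.8%) and 39.6% in SSDS-shACOT12 3 (3.00% to 81.3%), but at 127% in SSDS-shACOT12 2 (76.0% to 255%). mt-Nd6, a complex I subunit encoded on the other strand, had 1640, 942 and 1056 CPM in Control and 71.3, 1532 and 116 CPM in SSDS-shACOT12. mt-Co1, a catalytic subunit of complex IV, had 26203, 22907 and 19163 CPM against 13385, 23478 and 16936 CPM. Without SSDS-shACOT12 2 the list's median was -1.42. All mitochondrially encoded genes, rRNAs and tRNAs included, took 3.23% and 4.31% of all counts in libraries 1 and 3, 9.24% in library 2 and 6.31% to 8.31% in Control. The link of this share to the other results was not tested. With the mitochondrial genes removed, edgeR again called 0 genes.

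**Figure D4:**
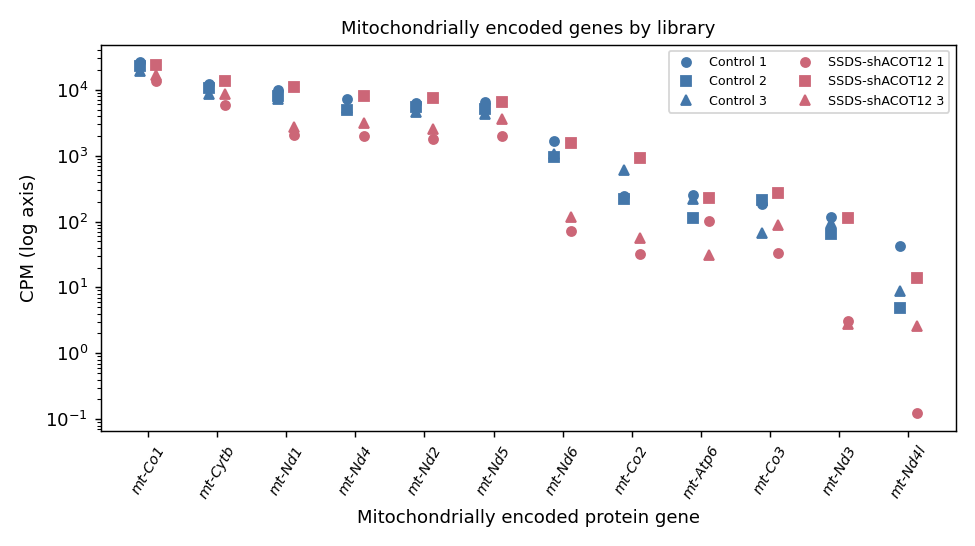
CPM (log axis) of the 12 kept mitochondrially encoded protein genes by library. SSDS-shACOT12 1 and 3 (red circles and triangles) lie below Control for most genes, such as 71.3 and 116 CPM against 942 to 1640 CPM for mt-Nd6, while SSDS-shACOT12 2 (red squares) lies among or above Control.

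Activity-regulated genes were higher. Of 25 immediate early genes 23 were higher, with a median of 0.96. At an unadjusted p under 0.05, 17 were higher and 0 lower, against 10.4% and 9.46% over all genes. For 13 the groups did not overlap and DESeq2 called 11, all higher, against 13.6% and 2.61% higher over all genes. Fos, the transcription factor subunit used as a marker of recent neuronal activity, had 4.00, 1.65 and 5.42 CPM in Control and 14.3, 13.2 and 49.1 CPM in SSDS-shACOT12 (2.78 ± 0.60). Egr2 had 0.667, 0.725 and 1.51 CPM against 2.15, 4.07 and 8.22 CPM, and Junb 45.1, 42.2 and 56.0 against 121, 59.3 and 111 CPM. Every library of SSDS-shACOT12 was above Control for these 3 genes, and SSDS-shACOT12 3 was the highest for Fos and Egr2. Dusp1, a phosphatase that ends MAP kinase signals, averaged 12.2 ± 1.13 and 20.5 ± 2.94 CPM (SD, n = 3).

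Neuropeptide genes were higher in 24 of 28, with a median of 0.95, but their sizes depended on the library. Sst, somatostatin of inhibitory neurons (ENSMUSG00000004366), was even across libraries, at 128, 168 and 126 CPM in Control and 252, 305 and 312 CPM in SSDS-shACOT12 (1.04 ± 0.16). Vgf, a secreted precursor induced by neuronal activity, had 133 CPM in each Control library and 224, 209 and 565 CPM in SSDS-shACOT12. Npy had 38.2, 45.6 and 38.9 CPM against 64.2, 60.3 and 386 CPM, and Penk, the enkephalin precursor, 28.1, 27.1 and 38.5 against 47.9, 23.6 and 610 CPM. The last 2, named after their values were seen, were far higher in SSDS-shACOT12 3 than in any other of the 6 libraries. Trh ran the other way, with 30.3 CPM in SSDS-shACOT12 2, 5.47 in library 1 and 0.609 in library 3 against 0.181 to 0.667 CPM in Control. Slc32a1, the vesicular transporter for GABA, averaged 45.2 ± 5.36 and 69.4 ± 10.7 CPM with no overlap. The list of GABA neurons and synapses as a whole had a median of 0.11. Of its 33 members, 9 were higher and 6 lower at an unadjusted p under 0.05, against 10.4% and 9.46% of all kept genes.

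Granule cell genes of the dentate gyrus were lower in 18 of 22, with a median of -0.64. At an unadjusted p under 0.05, 12 were lower and 1 higher, and 13 were below Control in every library. Of all kept genes, 9.46% were lower and 10.4% higher at that p, and 12.3% were below Control in every library. In tissue RNA, fewer cells of a type and less RNA per cell cannot be told apart. Tdo2 (ENSMUSG00000028011), a tryptophan dioxygenase found in granule cells, had 17.7, 19.2 and 16.2 CPM in Control and 7.25, 3.81 and 1.52 CPM in SSDS-shACOT12 (-2.07 ± 0.44). Stxbp6, a regulator of vesicle fusion, had 172, 147 and 201 CPM against 85.8, 66.1 and 90.9 CPM (-1.10 ± 0.18, edgeR adjusted p = 0.0302 over 12 libraries). Prox1, the transcription factor that defines granule cells, had 146, 140 and 173 CPM against 104, 75.1 and 95.7 CPM. All 3 were below every Control library. Other markers of these cells varied: Dsp, desmoplakin, had 68.0 CPM in SSDS-shACOT12 1 but 11.8 and 6.45 CPM in libraries 2 and 3, against 80.4 to 88.9 CPM in Control. C1ql2, a synaptic organizer secreted by granule cells, had 188, 75.1 and 317 CPM against 124 to 166 CPM, so that library 2 was below and libraries 1 and 3 above Control. With the length trend removed the list's median was -0.42.

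Markers of ventral position were higher in 17 of 20 (median 1.09), but without SSDS-shACOT12 2 the median was 0.20. Col6a1, a chain of collagen VI, had 12.9, 24.6 and 7.77 CPM in Control and 15.7, 83.9 and 74.4 CPM in SSDS-shACOT12, and only library 1 was within the range of Control. Nnat, an imprinted gene of the developing brain, had 234, 298 and 168 CPM against 366, 806 and 785 CPM. How far the position of the dissected tissue differed between libraries, and whether it bears on the granule cell and neuropeptide lists, was not tested. CA1 and CA3 pyramidal genes had a median of -0.12, with 5 of 23 lower at an unadjusted p under 0.05, against 9.46% of all kept genes.

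Potassium channel genes were split. Of 38 potassium channel genes 11 were lower and 2 higher at an unadjusted p under 0.05, 13 were below Control in every library and 3 above, yet the median was -0.04, and it was 0.03 with the length trend removed. The shares over all kept genes were 9.46% lower and 10.4% higher at that p, with 12.3% below Control in every library and 13.6% above. Kcna1, a channel of axons, had 41.0, 44.1 and 64.2 CPM in Control and 28.3, 20.5 and 19.3 CPM in SSDS-shACOT12. Kcnj3, a G protein-gated channel, had 171, 152 and 181 against 77.8, 111 and 63.6 CPM, and Kcnq3, a subunit of the M current, 247, 223 and 302 against 159, 139 and 83.5 CPM. The groups did not overlap in any of the 3. Of 33 glutamate receptor genes 18 were higher and 15 lower (median 0.03), with 3 higher and 4 lower at an unadjusted p under 0.05. That is near the share over all kept genes, 10.4% higher and 9.46% lower. Cacng5, an auxiliary subunit of AMPA receptors, and Grin2a, a subunit of NMDA receptors, were at -1.21 ± 0.27 and -0.72 ± 0.19, and the metabotropic receptor Grm4 at 0.90 ± 0.24, all without overlap.

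Genes of acetyl-CoA and acetate, the pathway of the targeted enzyme, showed no common shift. Of 35 kept members 22 were higher and 13 lower (median 0.15), with 6 higher and 2 lower at an unadjusted p under 0.05. The shares over all kept genes were 10.4% higher and 9.46% lower. Acot7, the main acyl-CoA thioesterase of brain (ENSMUSG00000028937), had 222, 232 and 210 CPM in Control and 332, 320 and 481 CPM in SSDS-shACOT12 (0.77 ± 0.18, edgeR adjusted p = 0.157). Acat2, which condenses acetyl-CoA, had 0.64 ± 0.22, Acly, which makes acetyl-CoA from citrate, 0.32 ± 0.13, and Acss1, a mitochondrial acetyl-CoA synthetase, 0.17 ± 0.13. All 4 were above Control in every library, although the unadjusted p of Acss1 was 0.220. Slc16a7, a monocarboxylate transporter of neurons, had 43.0, 36.9 and 52.8 CPM against 20.4, 35.6 and 21.3 CPM, and Acacb, an acetyl-CoA carboxylase, was at -1.02 ± 0.29. Histone acetylation genes had a median of 0.02 over 32 members.

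Immune lists did not move as one. Inflammatory cytokine and NF-kB genes had a median of 0.13 with 12 higher and 9 lower of 21, homeostatic microglial genes 0.08 over 24, and antigen presentation genes 0.02 over 22. Il1b, Tnf and Il6 had too few counts for the test; Il1b had 3, 5 and 6 counts in Control and 6, 3 and 40 in SSDS-shACOT12, Tnf 0, 0 and 2 against 3, 1 and 11, and Il6 3, 0 and 4 against 2, 2 and 14. For all 3 cytokines SSDS-shACOT12 3 held the highest count. Gfap, the filament of reactive astrocytes, was also highest there, at 1172 CPM against 393 and 224 CPM in the other 2 libraries and 328 to 386 CPM in Control. Interferon-response genes were lower in 26 of 33, with a median of -0.51. At an unadjusted p under 0.05, 11 were lower, against 9.46% of all kept genes. The Control libraries were uneven in this list, with mean scores of 0.17, 0.37 and -0.54 against -0.62, -0.61 and -0.43 in SSDS-shACOT12. The median was -0.26 without Control 2 and -0.74 without Control 3. Gbp4, an interferon-induced GTPase described after its values were seen, had 14.1, 29.2 and 4.46 CPM in Control and 0.984, 2.20 and 2.37 CPM in SSDS-shACOT12. Eif2ak2, the double-stranded RNA kinase, had 8.07, 6.33 and 5.00 against 2.89, 3.16 and 2.80 CPM.

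Choroid plexus and steroid-responsive genes also followed single Control libraries. Ttr, the thyroid hormone carrier made by choroid plexus, had 507, 143 and 8.01 CPM in Control and 8.24, 2.20 and 3.04 CPM in SSDS-shACOT12. All 9 kept choroid plexus genes were lower (median -0.77), and the median was -0.09 without Control 1. Of 25 glucocorticoid-induced genes 22 were lower (median -0.53), but the median was 0.003 without Control 2, whose Plin4, a lipid droplet protein, stood at 43.1 CPM, with 11.9 CPM in Control 1 and 1.63 CPM in Control 3. In contrast, the median of the endoplasmic reticulum chaperones stayed between 0.44 and 0.55 when each of the 6 libraries was left out in turn. It stayed at 0.30 to 0.42 for heat shock, 0.39 to 0.60 for the respiratory chain, 0.33 to 0.54 for ribosomal proteins and -0.66 to -0.57 for granule cells. Single chaperones did vary: without SSDS-shACOT12 2, 14 were called higher and 2 lower, Dnajb9 (-0.97) and Dnajc3 (-0.42), against 13.2% and 14.5% over all genes.

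**Figure D5:**
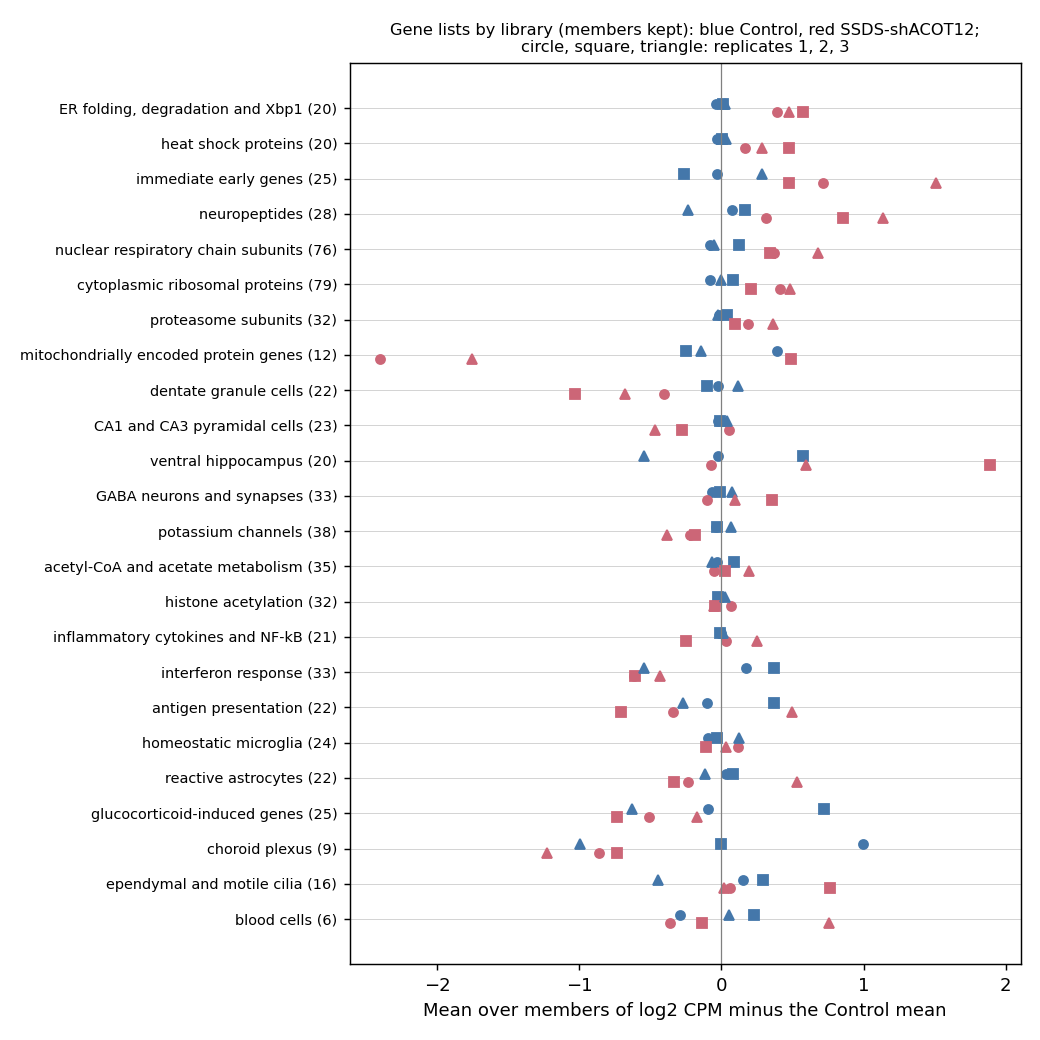
Mean over the kept members of each list (number in parentheses) of log2 CPM minus the Control mean, by library. The chaperone, respiratory chain and ribosomal lists have all 3 red symbols to the right of the blue ones, the mitochondrially encoded genes split with libraries 1 and 3 at -2.40 and -1.75 and library 2 at 0.49, and the interferon, glucocorticoid and choroid plexus lists show uneven Control libraries.

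The direct contrast with SSDS-GFP, which shares the stress but not the knockdown, called 0 of 16915 genes in edgeR's fit of 12 libraries (0% called), with 766 (4.53%) at an unadjusted p under 0.05. A fit of the 6 SSDS libraries alone also gave 0 calls, and 183 genes had an unadjusted p under 0.05. For Sdf2l1 the SSDS-GFP libraries had 30.8, 25.6 and 25.4 CPM, and the difference of SSDS-shACOT12 from them was -0.04 ± 0.13 (SE). For Hspa5 they had 413, 423 and 376 CPM (difference -0.17 ± 0.14), and for Xbp1 114, 109 and 117 CPM (-0.05 ± 0.12). Over the 30 genes with the smallest p, 15 in each direction, this difference ran from -0.91 (Cadm2) to 0.42 (Krt1), with a smallest adjusted p of 0.803. Dgkh had 130, 183 and 98.3 CPM in SSDS-GFP (-0.61 ± 0.25), with SSDS-GFP 3 inside the SSDS-shACOT12 range of 69.2 to 118 CPM. Tdo2 had 11.3, 11.3 and 8.86 CPM (-1.31 ± 0.37). Manf and Ano3 were at -0.30 ± 0.11 and -0.70 ± 0.20. An adjusted p over the threshold does not show that the groups are alike. The contrasts of both SSDS groups with Control share the Control libraries, and side by side the medians of SSDS-GFP and SSDS-shACOT12 were 0.62 and 0.47 for endoplasmic reticulum chaperones, 0.45 and 0.50 for the nuclear respiratory chain, 0.76 and 0.96 for immediate early genes, and -0.38 and -0.64 for granule cell genes. Other lists stood apart in these medians, with 0.05 and -0.44 for mitochondrially encoded protein genes, -0.03 and -1.15 for mitochondrial rRNAs and tRNAs, and 0.10 and -0.51 for interferon-response genes. The median difference of SSDS-shACOT12 from SSDS-GFP was -0.56, -0.86 and -0.49 in these 3 lists, which were picked after their values were seen. Both mitochondrial lists were low in SSDS-shACOT12 1 and 3 only. Their mean scores against the Control mean were -2.40 and -2.77 in library 1, -1.75 and -2.82 in library 3, and 0.49 and 0.20 in library 2.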

How the data were processed

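RNA was measured in ventral hippocampus libraries made with a NEBNext Ultra kit. Per the submitters' processing notes, the authors used HISAT2 2.0.5, featureCounts 1.5.0-p3, DESeq2 and mm10; annotation release, strand setting and filters were not given in the sources used here, so overlapping and antisense genes are uncertain. A deposited table holds raw counts for 54532 genes and a separate one FPKM values made by the authors, both with gene length in bases per the file headers. Date-like symbols of 27 genes were restored by gene ID. From the counts, 16264 genes were kept by the filterByExpr function (minimum count 10, total 15; edgeR 4.0.16, R 4.3.3), scaled by TMM and tested by the quasi-likelihood test with group as the only factor, 2-sided, with Benjamini-Hochberg adjustment over all kept genes at 0.05. Levels are CPM of the scaled 6 libraries; SSDS-GFP values use the scaling of 12, and list scores use a prior count of 2.

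The members and the 42 gene lists were chosen with earlier results of these data known. Genes named are the 15 with the smallest p in each direction among those averaging 1 or more in log2 CPM, as many as 4 members of each list by p, and a fixed set on acetyl-CoA and inflammation; genes with promoter matches, defining cell markers, and those said to be chosen after their values were seen, were added. Some genes that this rule names are not reported here. Alternatives were DESeq2 1.42.0, its size factors, filters, the fit of 12 libraries, the replicate block, each library left out, no mitochondrial genes, limma 3.58.1 on FPKM and with quality weights, no length trend, and glmTreat. Tested on simulated data for this comparison (16264 genes), the test recovered 2.99% of genes changed 1.5-fold, 35.8% changed 2-fold and 93.9% changed 4-fold. These were 2, 24 and 62 genes, beside 11 false calls among 16064 unchanged genes. The simulated spread was independent between genes, so no simulated library deviated over all genes as SSDS-shACOT12 2 did. The recovery may therefore not hold for the real libraries.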

Additional observations from a re-analysis of the deposited data

How the results depend on the processing

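The count of called genes depended on the setting more than the values did. It was 0 in edgeR's test on the 6 libraries (3226 at an unadjusted p under 0.05), and also 0 with DESeq2 size factors, with at least 50 counts in 3 libraries, without mitochondrial genes, without the length trend and against a 1.2-fold change. It was 672 with the DESeq2 Wald test (358 higher, 314 lower), 575 with no filter (256 and 319), 14 with all 12 libraries (9 and 5), 3627 with limma-voom quality weights (1537 and 2090; weight 0.190 for SSDS-shACOT12 2) and 1 (higher) with limma-trend on FPKM with either 0.1 or 1 added. Leaving out each library gave 0 to 4599 calls (0 to 2190 higher, 0 to 2409 lower), the highest without SSDS-shACOT12 2. Leaving out SSDS-shACOT12 1 and 3 together, chosen after seeing the data, gave 807 (424 and 383), with the lone library assumed to vary like Control. The cause of these differences was not tested.

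With the replicate number as a block 0 genes were called and 2510 had an unadjusted p under 0.05. Deviations of same-numbered libraries from their group means correlated at -0.170, -0.116 and -0.123, and those of differently numbered libraries at -0.117 to 0.226. With 3 libraries per group these values cannot settle whether the numbers pair the libraries. Counts of genes without overlap were 1896 to 2543 higher and 1640 to 2789 lower under the alternatives run. Reversed values, for which the cause was not tested, were those of Canx (-0.107 without SSDS-shACOT12 2, -0.103 with quality weights), C1ql2 (-0.139), Gfap (-0.202) and Hspd1 (0.0511) without SSDS-shACOT12 3, and Chordc1 (0.107 and 0.129 without SSDS-shACOT12 1 and 3). Hsp90aa1 and Dnaja1 also reversed without SSDS-shACOT12 2, at -0.194 and -0.252, and their values with quality weights are not given. With each library left out in turn, Canx ran from -0.107 to 0.152, C1ql2 from -0.139 to 0.811, Gfap from -0.202 to 1.15, Chordc1 from -0.768 to 0.129 and Hspd1 from -0.441 to 0.0511. Selenos, near 0, turned to 0.00429 with 12 libraries, 0.000762 without mitochondrial genes and 0.0389 with quality weights, and ran from -0.0820 to 0.0853 with each library left out (0.0113 and 0.0115 without Control 2 and 3). Without both SSDS-shACOT12 1 and 3 the reversed values were those of Dnajc3 (0.250), Sel1l (0.0543), Dnajb9 (0.328), mt-Co1 (0.0473), mt-Nd1 (0.366), mt-Nd3 (0.329), mt-Nd6 (0.339), C1ql2 (-0.964), Gfap (-0.679), Chordc1 (0.660), Hspd1 (0.341) and Penk (-0.401). The 3 libraries per group limit the precision of every value.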
